A study of Rattus norvegicus with 6 samples.

Results

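The genes described here are 9 that sense or handle double-stranded RNA: the RIG-I-like receptors Ddx58 (RIG-I), Ifih1 (MDA5) and Dhx58 (LGP2), their mitochondrial adaptor Mavs, the endosomal receptor Tlr3 with its adaptor Ticam1 (TRIF), the RNA-activated kinase Eif2ak2 (PKR), the RNA-editing deaminase Adar and the helicase Ddx60. They were taken by symbol from a table of 40154 rat genes, in which each of the 9 had a row. All 9 passed the filter on low counts, which left 14852 genes for testing. The cells were primary atrial fibroblasts of Sprague-Dawley rats aged 1 to 3 days, separated from myocytes by their quicker attachment to the dish. They were transfected with a negative control siRNA (si-NC, 3 libraries) or with an siRNA against the glycerol-3-phosphate dehydrogenase 1-like gene (si-GPD1L, 3 libraries), and polyadenylated RNA was sequenced after 24 h. The 6 libraries share the strain, the tissue and a treatment label that reads Atrial differentiation. Cells of both groups therefore received an siRNA, which is itself a short double-stranded RNA, and untransfected cells were not analysed here. The labels do not say whether the digit after si-GPD1L numbers a culture or another siRNA, or whether the libraries came from separate isolations, so the p-values measure the spread between these libraries, which may be technical.

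Long double-stranded RNA is rare in an uninfected cell, and several classes of protein watch for it or for shorter forms. In the cytosol RIG-I binds short RNA with a 5′ triphosphate and MDA5 binds long double-stranded RNA, and each joins MAVS on mitochondria. TLR3 binds double-stranded RNA inside endosomes and signals through TRIF, and both routes lead to the transcription of type I interferon genes. LGP2 also binds double-stranded RNA but lacks the signalling domains of its relatives and tunes them. PKR halts translation by phosphorylating eIF2 alpha, and ADAR1, the product of Adar, converts adenosine to inosine in paired RNA and so limits its recognition. DDX60 is a helicase described as a helper of RIG-I. Many of these genes are themselves induced by interferon, a response driven in part by the interferon-stimulated response element in their promoters.

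Promoter sequence was held for 5 of the 9 genes in RefSeq (assembly GRCr8): Ifih1, Eif2ak2, Ddx60, Mavs and Tlr3. Ddx58, Dhx58, Ticam1 and Adar had no entry. The stretches below run from 100 bases before the annotated start to 50 bases after it, 5′ to 3′ on the gene's strand, and are shown for all 5. Of these, Ifih1 and Eif2ak2 rose several-fold, Ddx60 far more and Tlr3 less, and Mavs did not pass the test. Ddx58, Dhx58 and Adar also rose, and their promoters were not examined. Capitals mark each match to the core of the interferon-stimulated response element, searched as GAAANNGAA on both strands (the reverse complement being TTCNNTTTC).
Ifih1 (chr3:67683919-67684068, minus strand): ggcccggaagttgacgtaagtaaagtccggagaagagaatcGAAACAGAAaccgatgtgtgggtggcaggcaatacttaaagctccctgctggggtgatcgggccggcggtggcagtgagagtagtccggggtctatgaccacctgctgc
Eif2ak2 (chr6:21941054-21941203, plus strand): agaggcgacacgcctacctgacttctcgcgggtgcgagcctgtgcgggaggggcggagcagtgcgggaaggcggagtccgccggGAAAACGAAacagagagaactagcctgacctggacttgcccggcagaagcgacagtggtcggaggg
Ddx60 (chr16:33208790-33208939, minus strand): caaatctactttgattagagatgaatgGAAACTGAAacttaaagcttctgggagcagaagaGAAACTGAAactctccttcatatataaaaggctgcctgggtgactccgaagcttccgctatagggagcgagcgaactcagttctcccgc
Mavs (chr3:138904712-138904861, plus strand): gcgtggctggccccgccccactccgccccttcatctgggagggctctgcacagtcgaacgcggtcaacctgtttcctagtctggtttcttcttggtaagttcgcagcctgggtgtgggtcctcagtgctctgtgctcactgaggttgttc
Tlr3 (chr16:53554816-53554965, plus strand): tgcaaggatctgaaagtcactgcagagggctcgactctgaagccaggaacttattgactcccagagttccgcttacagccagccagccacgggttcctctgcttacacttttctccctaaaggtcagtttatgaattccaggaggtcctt

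Over the whole 300-base window of the reference table, which starts 250 bases before the annotated start, the match began 59 bases before the start of Ifih1, 16 bases before that of Eif2ak2, and 73 and 39 bases before that of Ddx60. The windows of Mavs and Tlr3 held none. Among all 33469 rat promoter windows of this length, 3251 (9.71%) held at least 1 match. These letters are a description of the sequence, and binding was not measured in this series.

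Gene totals were 16892255 to 20149732 counts per library, with scaling factors of 0.994 to 1.01. Gpd1l, the target (chromosome 8, 122957570 to 122987236, minus strand, rn6), had 262, 332 and 313 normalized counts in si-NC and 220, 208 and 302 in si-GPD1L, each count having been rescaled to the average effective library size to give a normalized count. The third si-GPD1L library thus lay inside the si-NC range, and the fall of 0.31 on the log2 scale did not pass the test (SE 0.15, adjusted p = 0.234), so the group is called the libraries labelled si-GPD1L below. All 10 fibroblast markers were expressed, with normalized counts that summed to between 1274150 and 1575080 in si-NC and to between 1476650 and 1566540 in si-GPD1L, and 2 of them fell (Dcn and Lum). Most of these sums came from Col1a1 (means of 762835 in si-NC and 907843 in si-GPD1L) and Col3a1 (548766 and 457366). They moved in opposite directions without passing the test, so the sums say little about the other markers. Cardiomyocyte markers summed to 37269 to 39270 and 33872 to 37098, with 1 of 10 lower (Pln), and macrophage and leukocyte markers summed to 3129 to 3404 and 2669 to 3858, with 0 of 14 past the test by edgeR and 1 at an unadjusted p under 0.05. Endothelial markers moved with the group: 5 of 11 tested were higher, and their sum was 1990 to 2468 in the si-NC libraries against 2774 to 2883 in the others. Flt1 made up the largest part of that sum (means of 1309 in si-NC and 1421 in si-GPD1L) and did not pass the test by edgeR (adjusted p = 0.518). For comparison, 4.03% of all tested genes rose and 2.33% fell, and 3324 of 14852 had an unadjusted p under 0.05. No marker was at 0 in all libraries, and the part of these other cells in the results below was not tested. In bulk RNA, a change in the number of cells of a type and a change in RNA per cell cannot be told apart.

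Each of the 3 RIG-I-like receptor genes was higher in the libraries labelled si-GPD1L, from about 6-fold for the MDA5 gene to about 48-fold for the LGP2 gene. Ddx58, which encodes RIG-I, the sensor of short RNA with a 5′ triphosphate (NCBI gene 297989, chromosome 5, 56486584 to 56536898, minus strand, rn6), had 289, 239 and 268 normalized counts in si-NC and 2086, 2398 and 2071 in si-GPD1L. Each si-GPD1L library lay far above each si-NC library. The means were 265 ± 24.9 and 2185 ± 184 (SD, n = 3), a log2 fold change of 3.04 (SE 0.095, 95% interval 2.83 to 3.25), or 8.22-fold, with an adjusted p of 2.62e-10 in edgeR's quasi-likelihood test.

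Ifih1 encodes MDA5, the sensor of long double-stranded RNA (gene 499801, chromosome 3, 48557696 to 48604097, minus strand, rn6). It stood at 210, 216 and 211 normalized counts in si-NC against 1274, 1432 and 1332 in si-GPD1L. The si-NC libraries were almost alike, and the groups were well separated. From 212 ± 3.32 to 1346 ± 79.9 (SD, n = 3) the log2 fold change was 2.67 (SE 0.084, 95% interval 2.48 to 2.85), or 6.34-fold (adjusted p = 2.73e-10).

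Dhx58, the gene of LGP2 (gene 303538, chromosome 10, 88599722 to 88611562, minus strand, rn6), had few counts in the control cells. It had raw counts of 14, 14 and 13 in si-NC and 623, 782 and 594 in si-GPD1L. On the normalized scale these were 13.8 ± 1.06 and 661 ± 61.0 (SD, n = 3), so the log2 fold change was 5.57 (SE 0.15, 95% interval 5.24 to 5.90), or 47.6-fold (adjusted p = 1.14e-10). It ranked 8 of 14852 genes by p and 26 by fold.

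**Figure D1:**
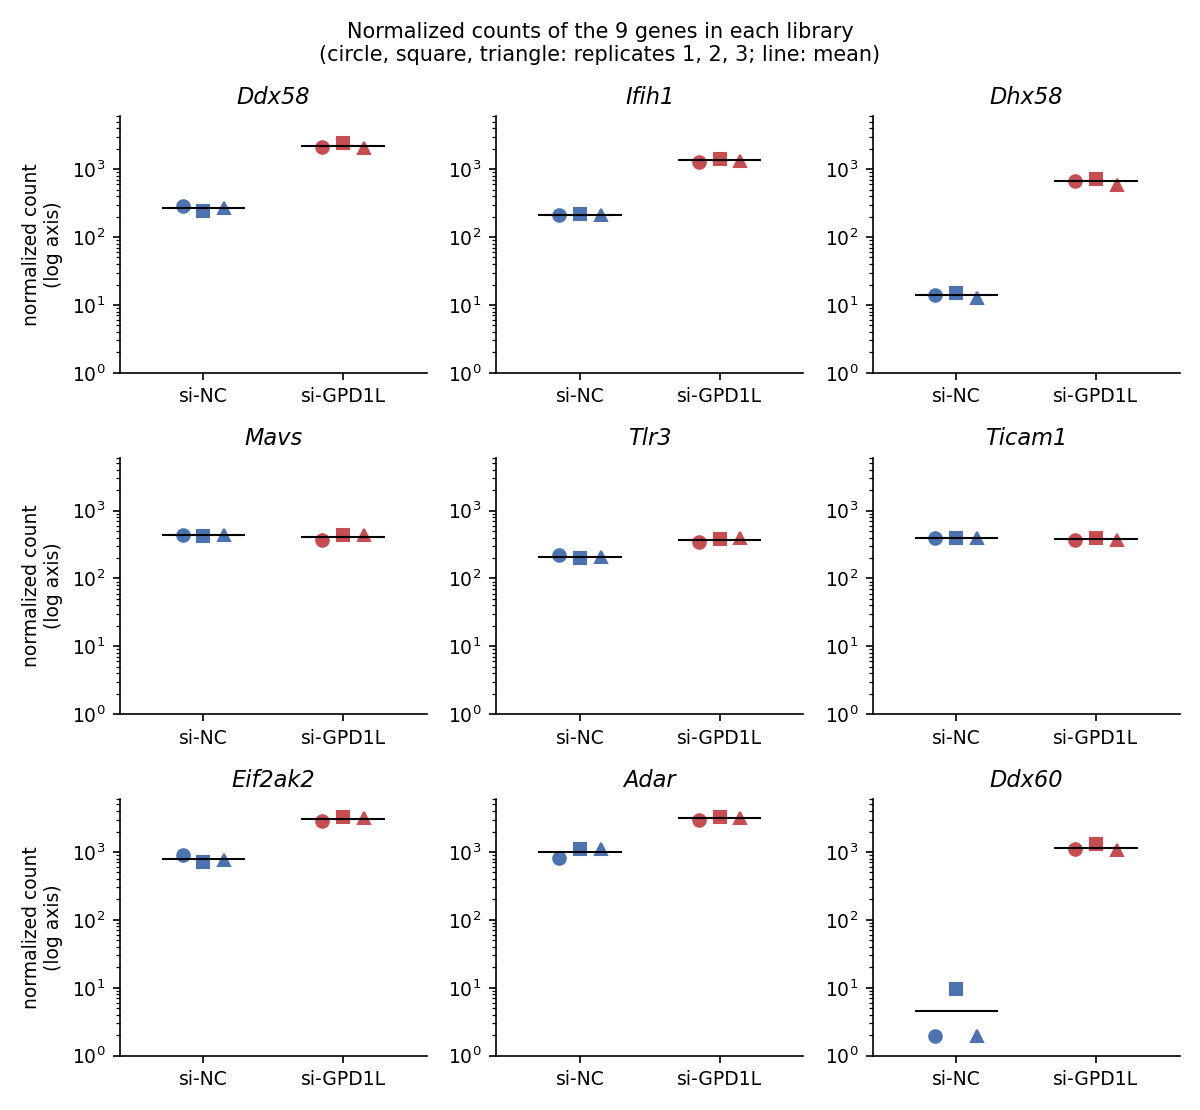
Normalized counts (log10 axis) of the 9 genes in each of the 3 si-NC and 3 si-GPD1L libraries, drawn as a circle, square and triangle for replicates 1, 2 and 3, with lines at the group means. The groups are apart for Ddx58, Ifih1, Dhx58, Tlr3, Eif2ak2, Adar and Ddx60, whereas the values of Mavs overlap (420 to 438 and 363 to 440) and those of Ticam1 nearly touch (393 to 395 and 367 to 391).

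Because the receptors rose by unlike amounts, their proportions among RIG-I-like receptor transcripts differed between the groups. Levels can be compared between genes only per length, so the deposited TPM values were used. In these, reads are scaled by a length given for each gene and by library. For Adar that length was 9337 bases, above its transcripts of 3608 to 7671 bases, so its TPM may be too low beside other genes. The sum of the 3 genes was 15.03, 14.98 and 15.83 TPM in si-NC and 139, 157 and 138 TPM in si-GPD1L. Dhx58 made up 3.79%, 4.38% and 3.61% of that sum in si-NC and 22.3%, 20.9% and 19.8% in si-GPD1L. The LGP2 gene thus went from a trace to a sizeable minority of the receptor transcripts, in each library of the group. Ddx58 held 50.5 ± 2.82% and then 46.6 ± 0.647%, and Ifih1 went from 45.6 ± 2.48% to 32.4 ± 1.12% (SD, n = 3).

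Ratios of TPM within a library give the same change without the scaling between libraries. Dhx58 per Ddx58 was 0.0782 ± 0.0124 in si-NC and 0.452 ± 0.0305 in si-GPD1L, a 5.82-fold difference. Ifih1 per Ddx58 was 0.908 ± 0.101 and 0.696 ± 0.0266, a log2 difference of -0.38. Neither pair of groups overlapped. In an exact two-sided permutation test both had p = 0.10, the smallest that 3 against 3 libraries allow, and 0.12 after Benjamini-Hochberg adjustment over the 6 ratios computed, so these differences cannot reach 0.05 in this design.

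Their adaptor did not pass the test. Mavs (gene 311430, chromosome 3, 123776147 to 123790572, plus strand, rn6), whose product gathers activated RIG-I and MDA5 on the mitochondrial surface, had 429, 420 and 438 normalized counts in si-NC and 363, 433 and 440 in si-GPD1L. The first si-GPD1L library was the lowest and the other two lay within or next to the si-NC range. The log2 fold change was -0.057 (SE 0.097, adjusted p = 0.777), and its 95% interval of -0.27 to 0.15 leaves room for a modest change in either direction but none of the size seen in the receptors. Without the first si-GPD1L library the sign turned, to 0.022 on the log2 scale.

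Receptor transcript per adaptor transcript was higher in each si-GPD1L library than in any si-NC library. Ddx58 per Mavs went from 0.569 ± 0.0479 to 4.91 ± 0.507 (TPM ratio, SD, n = 3), or 8.61-fold. Ifih1 per Mavs went from 0.513 ± 0.0179 to 3.41 ± 0.252, or 6.62-fold. In si-NC the adaptor was thus the more abundant transcript in each library, and in si-GPD1L both receptors exceeded it. Each ratio had p = 0.10 in the exact two-sided permutation test (0.12 adjusted over the 6 ratios).

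**Figure D2:**
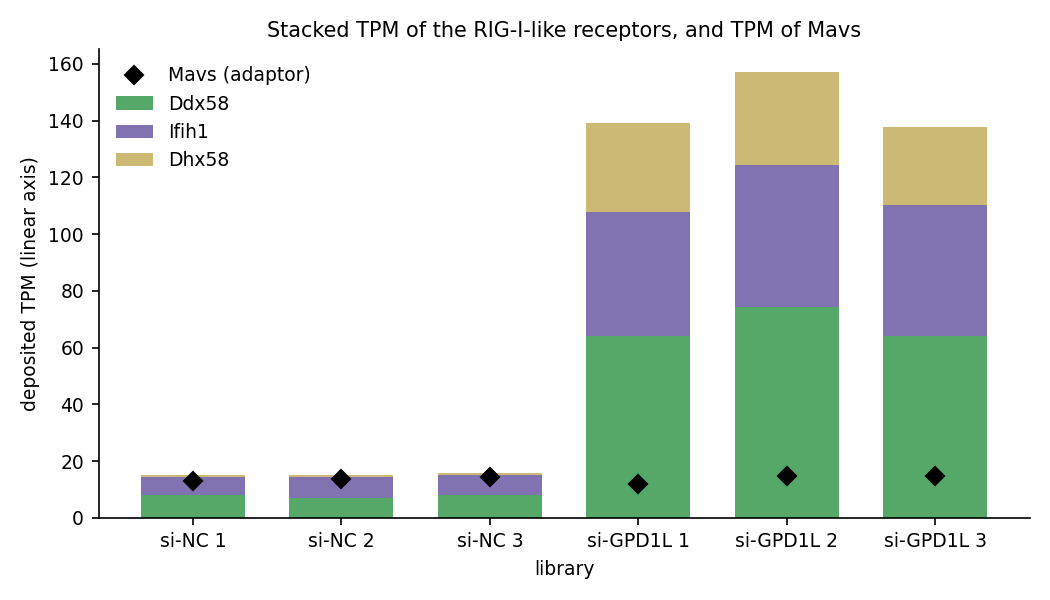
Level in TPM (linear axis) of Ddx58, Ifih1 and Dhx58, stacked, in each of the 6 libraries, with the level of the adaptor Mavs as a diamond. The stacks reach 14.98 to 15.83 TPM in si-NC and 138 to 157 TPM in si-GPD1L, Dhx58 (top segment) fills 3.61% to 4.38% and then 19.8% to 22.3% of them, and the diamonds of Mavs lie between 12.1 and 14.8 TPM.

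In the endosomal pair the receptor rose by less than 2-fold and the adaptor did not pass the test. Tlr3 (gene 364594, chromosome 16, 50016466 to 50031011, plus strand, rn6), the Toll-like receptor for double-stranded RNA, had 220, 200 and 205 normalized counts in si-NC and 345, 376 and 390 in si-GPD1L. All si-GPD1L libraries were above all si-NC libraries. From 208 ± 10.7 to 370 ± 23.4 (SD, n = 3), Tlr3 rose by a log2 fold change of 0.83 (SE 0.10, 95% interval 0.61 to 1.05), or 1.78-fold (adjusted p = 0.000251), which is under the 2-fold threshold of the study.

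Ticam1, which encodes TRIF, the adaptor that TLR3 uses (gene 363328, chromosome 9, 10780185 to 10790280, plus strand, rn6), had 395, 394 and 393 normalized counts in si-NC and 367, 391 and 369 in si-GPD1L. The si-GPD1L libraries were slightly lower without overlap, but the difference did not pass the test (log2 fold change -0.067, SE 0.087, 95% interval -0.25 to 0.12, adjusted p = 0.703). Its annotated span overlaps Plin3 on the same strand, so reads in the shared stretch may be uncertain. Tlr3 per Ticam1 went from 0.442 ± 0.0221 to 0.823 ± 0.0524 (TPM ratio), or 1.86-fold, with p = 0.10 in the exact two-sided permutation test (0.12 adjusted).

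Eif2ak2 and Adar, a pair of double-stranded RNA binders that act on translation and on the RNA itself, began from higher levels and rose by about 3- to 4-fold. Eif2ak2, the PKR gene (gene 54287, chromosome 6, 1428845 to 1466193, minus strand, rn6), had 897, 715 and 751 normalized counts in si-NC and 2859, 3271 and 3166 in si-GPD1L. Its means of 788 ± 96.2 and 3099 ± 214 (SD, n = 3) gave a log2 fold change of 1.98 (SE 0.093, 95% interval 1.77 to 2.18), or 3.93-fold (adjusted p = 1.40e-08). Every library labelled si-GPD1L was above the highest si-NC library.

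Adar (gene 81635, chromosome 2, 189045551 to 189085448, plus strand, rn6) had 808, 1088 and 1093 normalized counts in si-NC and 2964, 3303 and 3177 in si-GPD1L. The first si-NC library was lower than the other two. The means were 996 ± 163 and 3148 ± 172 (SD, n = 3), with a log2 fold change of 1.66 (SE 0.11, 95% interval 1.43 to 1.89), or 3.16-fold (adjusted p = 3.61e-07), and 1.53 without the first si-NC library. All si-GPD1L libraries were above all si-NC libraries for this gene too.

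The balance of Eif2ak2 to Adar depended on which si-NC library was left out. The TPM ratio was 2.31, 1.37 and 1.43 in si-NC and 2.003, 2.06 and 2.07 in si-GPD1L. Its absolute level depends on the gene length used for Adar, whereas the log2 difference between the groups does not. The groups overlapped (log2 difference 0.31, exact two-sided permutation p = 0.4, 0.4 adjusted over the 6 ratios). The log2 difference was 0.55 without si-NC replicate 1, 0.17 without replicate 2 and 0.20 without replicate 3.

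Ddx60 (gene 100360801, chromosome 16, 29816144 to 29936220, minus strand, rn6) went from near the limit of counting to a level per length (in TPM) above that of Mavs. Its raw counts were 2, 9 and 2 in si-NC and 998, 1419 and 1073 in si-GPD1L. Most of the control counts came from the second si-NC library. On the normalized scale it had 4.48 ± 4.36 and 1150 ± 122 (SD, n = 3), with a fitted log2 fold change of 8.001 (SE 0.24, 95% interval 7.48 to 8.52, adjusted p = 1.83e-10), which ran from 7.64 to 9.10 when single libraries were left out. The ratio of normalized summed counts, 3490 against 13 raw counts, was 265 with a 95% exact Poisson interval of 155 to 498, which covers counting error only. By fold it was the 5th of all genes tested.

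In all, 7 of the 9 genes rose at an adjusted p under 0.05 and none fell, where 4.03% of the 14852 tested genes rose and 2.33% fell. Ddx60, with 2 to 9 raw counts in si-NC, passed the filter only through si-GPD1L, and it enters each count of this paragraph. With at least 10 counts in every library, 8 of the 9 were tested and 6 were called, where 528 of 13722 tested genes rose. At the study's second threshold, a log2 fold change above 1, 6 of the 9 were called higher, against 1.48% of all tested genes. The groups did not overlap for 8 of the 9, whereas this held for 29.0% of all tested genes, so separation alone says little. The median log2 fold change of the 9 was 1.98 and that of all tested genes was -0.0049. The genes that did not pass were the adaptors Mavs and Ticam1.

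**Figure D3:**
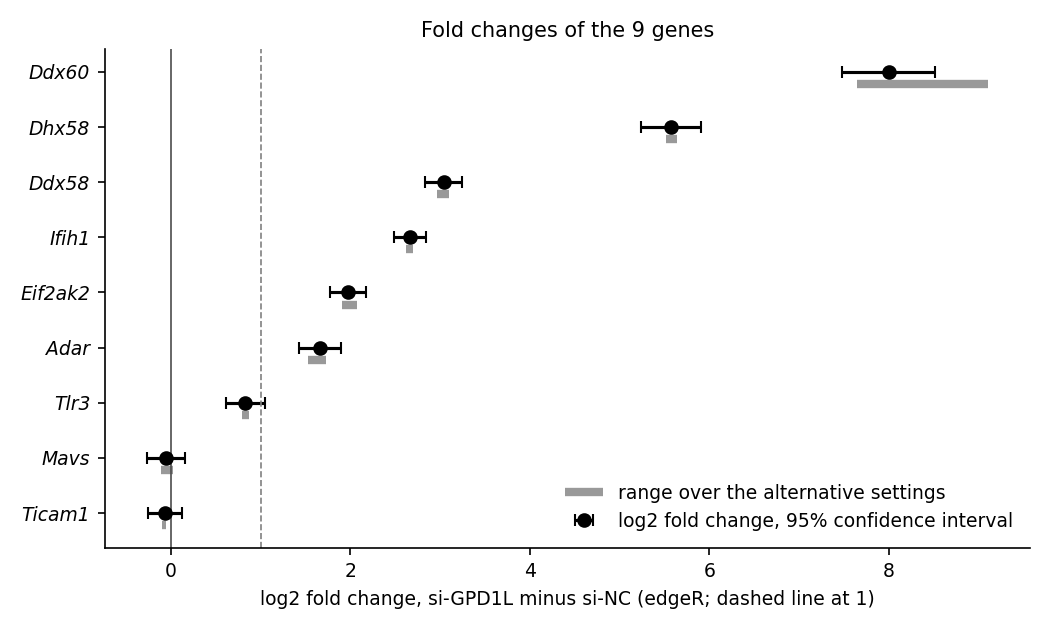
Log2 fold change (si-GPD1L over si-NC) of the 9 genes with 95% intervals from edgeR's quasi-likelihood fit, with grey bars for the range over the alternative settings and a dashed line at the study's threshold of 1. The intervals of Mavs (-0.27 to 0.15) and Ticam1 (-0.25 to 0.12) include 0, and that of Tlr3 (0.61 to 1.05) lies above 0 and reaches the threshold.

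The order of the genes by TPM changed as well, though the place of Adar depends on the gene length used for it. In si-NC, Eif2ak2 was highest at 22.3 ± 1.70 TPM. It was followed by Ticam1 (14.0 ± 0.649), Adar (13.7 ± 2.83) and Mavs (13.6 ± 0.761), whose ranges over the libraries overlapped. Next came Ddx58 (7.71 ± 0.537) and Ifih1 (6.97 ± 0.399), which also overlapped, and then Tlr3 (6.16 ± 0.124), Dhx58 (0.599 ± 0.0499) and Ddx60 (0.0897 ± 0.0887). The adaptors thus stood above all the sensors that use them.

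In the libraries labelled si-GPD1L the adaptors came near the end. Eif2ak2 was again highest (93.5 ± 7.003 TPM), now followed by Ddx58 (67.4 ± 5.99). Ifih1 (46.8 ± 3.04) and Adar (45.7 ± 2.76) overlapped, and Dhx58 (30.4 ± 2.82) and Ddx60 (24.1 ± 2.65) came next. Ticam1 (14.1 ± 0.555), Mavs (13.8 ± 1.50) and Tlr3 (11.6 ± 0.791) were lowest and overlapped as neighbours. The 9 genes together held 81.9, 84.9 and 88.6 TPM in si-NC and 327, 373 and 343 TPM in si-GPD1L.

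At the level of single transcripts, counted in a separate table, 26 transcripts of the 9 genes were tested and 18 were higher, where 3.58% of the 37822 tested transcripts were. These 18 were all the transcripts of the 7 genes that rose, and 0 of the 6 of Mavs and the 2 of Ticam1 passed the test. The 6 Adar transcripts rose alike, by log2 fold changes of 1.64 to 1.69 (adjusted p 1.68e-07 to 4.62e-07). The count of the 3608-base Adar transcript equalled between 60.7% and 64.2% of the gene's count in the gene table in the si-NC libraries and between 63.0% and 66.0% in the others. Transcripts of 1 gene share most of their reads, which were counted more than once, so these are not separate tests.

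Counts in the related lists are read against the share of all tested genes that rose (4.03%) or fell (2.33%). Of 37 genes that regulate the RIG-I-like receptors, 34 were tested, and 3 rose (8.82%) and 0 fell, with a median log2 fold change of -0.033. DESeq2's Wald test and edgeR's exact test called the same 3 higher and also 2 lower, Ddx3x and Ppp1cc. Trim25, a ubiquitin ligase for RIG-I, stood at 411 ± 90.2 normalized counts in si-NC and 1403 ± 87.0 in si-GPD1L, a rise of 1.77 on the log2 scale (adjusted p = 1.21e-06). Nlrc5, a NOD-like protein best known as an activator of MHC class I genes, rose by 3.62 (adjusted p = 1.34e-06), from raw counts of 9, 11 and 11 to 102, 180 and 112. It was not tested with at least 10 counts in every library, where 2 of the list were called. Zc3hav1, an antiviral zinc finger protein, rose by 0.81 (adjusted p = 1.59e-05). The most abundant that did not pass were Ddx3x, at -0.32 (adjusted p = 0.0675), and Ywhae, at -0.11.

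Of the 27 genes that carry the signal below MAVS and TRIF, all were tested, and 2 rose (7.41%, against 4.03% of all tested genes) and 0 fell, with a median of 0.068. Irf7, the transcription factor that amplifies interferon production, had 69.6 ± 9.25 normalized counts in si-NC and 4083 ± 784 in si-GPD1L (SD, n = 3), and so rose by 5.87 on the log2 scale (adjusted p = 1.14e-10). Ripk3, a kinase of necroptosis, rose by 0.54 (adjusted p = 0.00215). The kinase genes Tbk1 (0.068) and Ikbke (0.13) and the factor gene Irf3 (-0.012) did not pass, and were named here after their values were seen. Among the most abundant, Tab2 stood at 0.018 and Nfkb1 at 0.079.

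No gene passed among the 16 tested of 21 further Toll-like receptors, adaptors and trafficking factors by edgeR's quasi-likelihood test (median 0.019), where 5 had an unadjusted p under 0.05, and DESeq2 and edgeR's exact test each called 1, Unc93b1, the chaperone of endosomal Toll-like receptors. The 2 most abundant, Hsp90b1 and Wdfy1, stood at 0.068 and -0.15. Likewise 0 of the 18 partners of PKR and members of the eIF2 alpha axis passed (median 0.0045), with 5 at an unadjusted p under 0.05 and 0 called by DESeq2 or the exact test. Eif2s2, a subunit of eIF2, stood at -0.097 and Atf4, the factor translated when eIF2 alpha is phosphorylated, at -0.012. Of all tested genes 4.03% rose and 2.33% fell, so a count of 0 among so few genes says little. An unadjusted p under 0.05 was held by 3324 of all 14852 tested genes, so the 5 in each list say little either. Of the PKR list, 3 were called without si-NC replicate 1 (Ddit3, Dnajc3 and Eif2s3), where 1531 of 15182 tested genes were. Without si-NC replicate 3, 1 was called (Eif2s3), where 1451 of 15166 were. With no filter on low counts 2 were called (Ddit3 and Eif2s3), where 1929 of 24928 were.

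Among 15 tested of 19 other genes of double-stranded RNA binding, editing and decay, 2 rose (13.3%, against 4.03% of all tested genes), 0 fell, and the median was 0.017. Pnpt1, a mitochondrial exoribonuclease, rose by 0.77 (adjusted p = 0.000919), and Zbp1, a sensor of Z-form nucleic acid, went from raw counts of 2, 1 and 0 to 16, 23 and 11 (adjusted p = 0.00414). Zbp1 passed the filter only through si-GPD1L, and with at least 10 counts in every library Pnpt1 alone was called. Sidt2 (0.25, adjusted p = 0.0760) and Zfr (-0.077) did not pass. Adarb1, the gene of the related editing enzyme ADAR2, stood at 0.28 with an adjusted p of 0.0646, and was named after its value was seen. It was called higher by DESeq2, by edgeR's exact test, with no filter and without si-NC replicate 1. Of 49 tested other Ddx and Dhx helicase genes, 1 rose by edgeR's quasi-likelihood test (2.04%, against 4.03% of all tested genes), namely Ddx24 (0.41, adjusted p = 0.00513), and 0 fell, with a median of 0.026. DESeq2, edgeR's exact test and no filter also called Ddx3x lower, and the last 2 of these called Ddx56 higher. Ddx5 stood at -0.22 and Ddx3x as above.

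**Figure D4:**
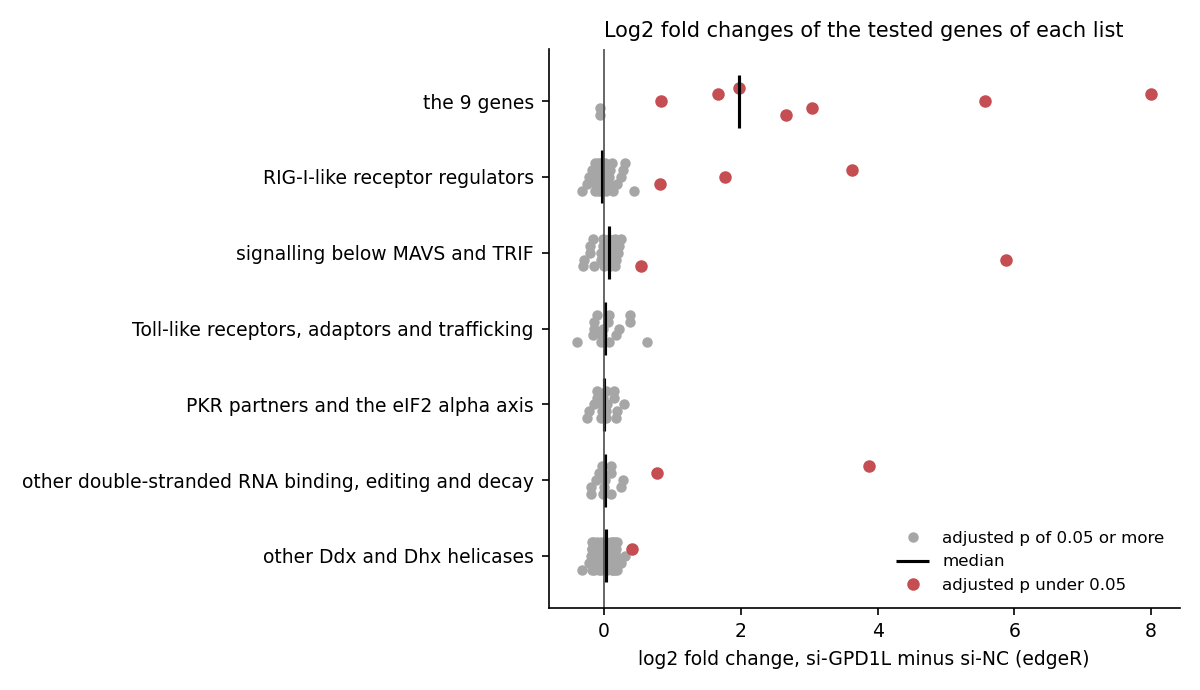
Log2 fold change (si-GPD1L over si-NC) of each tested gene in the 9 genes and in the related lists, with red points for an adjusted p under 0.05, grey points for the others, black bars at the medians and vertical offsets that only separate points. The median of the 9 genes (1.98) lies away from 0, and those of the regulators (-0.033), downstream signalling (0.068), Toll-like receptor (0.019), PKR (0.0045), other double-stranded RNA (0.017) and helicase (0.026) lists lie near it.

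The 2-5 oligoadenylate synthetases, which also bind double-stranded RNA, had 7 genes that rose and 0 that fell, where 4.03% of all tested genes rose. Oasl2 rose from raw counts of 123, 137 and 129 to 2123, 2878 and 2484 (log2 fold change 4.24, adjusted p = 2.77e-11). Oas1a (7.49), Oas1b (6.46) and Oasl (6.71) had at most 9 counts in any si-NC library, and reads may be split among the similar copies of the Oas1 genes, which was not examined. Of the 7, all but Oasl2 passed the filter only through si-GPD1L, namely Oas1a, Oas1b, Oasl, Oas1g, Oas1i and Oas2. The count of 7 therefore rests mostly on genes admitted through the group in which they were high. With at least 10 counts in every library Oasl2 alone was called.

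Genes whose levels followed the RIG-I-like receptors most closely were sought over the 6 libraries, as the Pearson correlation with the mean standardized log2 normalized count of Ddx58, Ifih1 and Dhx58, among the 11874 genes that averaged 50 or more normalized counts. The highest were LOC103690030 (0.99984), Psmb8 (0.99981), Irgm2 (0.99954), Irgm (0.99946) and Dtx3l (0.99917). Psmb8 encodes a subunit of the immunoproteasome, and Irgm2 and Irgm encode immunity-related GTPases. The points share the 2 groups, so these values mostly repeat the difference between them and are given as a description. Psmb8 stood at 63.7 ± 1.11 normalized counts in si-NC and 328 ± 12.3 in si-GPD1L, and Irgm2 at 184 ± 5.94 and 2088 ± 146 (SD, n = 3).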

How the data were processed

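Gene and transcript counts and TPM were used as deposited by the authors. Per the labels' processing notes, which name the tools without their roles, bcl2fastq, HISAT2 2.1.0, HTSeq 0.12.4 and the rn6 build were used. The strand setting of the counting was not given in the sources used here. The deposited table also holds the authors' fold changes and p-values, which were not used.

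Counts were fitted over all genes with edgeR 4.0.16 (R 4.3.3; filterByExpr, TMM scaling, quasi-likelihood F test, Benjamini-Hochberg adjustment), 3 against 3 libraries without covariates. Thresholds were an adjusted p of 0.05 and, after the study, a log2 fold change of 1. The SE is the log2 fold change divided by the root of F. TPM ratios were compared by exact two-sided permutation tests (scipy 1.17.1). On simulated counts of 14685 genes for this comparison, 200 of 200 changed genes were recovered and 10 unchanged ones called. The changed genes averaged at least 50 normalized counts, with log2 changes of 1 or more in size. All genes were given the same dispersion, so recovery at few counts or with uneven spread between replicates was not examined.

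Alternatives were DESeq2 1.42.0 (size factors and Wald test), upper-quartile scaling, edgeR's exact test, no filter, at least 10 counts in every library, a 1.5-fold threshold, a replicate block and leaving out each library. The members and gene lists were chosen with earlier results of these data known. Named list genes were up to 4 with the smallest adjusted p under 0.05 and the 2 most abundant of the others, plus the 5 genes most like the RIG-I-like receptors. The result for 1 gene of the lists is not reported here.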

Additional observations from a re-analysis of the deposited data

How the results depend on the processing

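Of 336 values recomputed under the alternatives, 303 kept their direction and call, stayed within 1.5 times the reported count or met the rule for TPM ratios. That rule asked for the same direction and a shift under 1 SD of the log2 ratios. The Eif2ak2 to Adar ratio met it, although its log2 difference ran from 0.17 to 0.55 over left-out libraries. The 7 rising genes passed in every alternative in which they were tested, and Mavs and Ticam1 in none. Ddx60 was not tested with at least 10 counts in every library, which left 8 of the 9 genes tested and 6 called. Genes at an adjusted p under 0.05 numbered 945 (599 higher, 346 lower), 1175 with DESeq2's Wald test, 1528 with the exact test of edgeR and 1929 with no filter. They numbered 839 with at least 10 counts in every library. Without si-NC replicates 1, 2 and 3 they numbered 1531, 550 and 1451. Without si-GPD1L replicates 1, 2 and 3 they numbered 366, 361 and 591. Upper-quartile scaling split them as 526 higher and 455 lower. The list counts that follow are read against the total of the same setting. Regulators of the RIG-I-like receptors called numbered 3 (0 lower), with 5 by DESeq2 (2 lower), 5 by the exact test (2 lower), 6 without a filter (2 lower), 4 with upper-quartile scaling (1 lower) and 3 to 5 with a library left out. For the Toll-like receptor list (0), DESeq2, the exact test and no filter gave 1 and left-out libraries 0 to 1. For the PKR list (0), no filter gave 2 and left-out libraries 0 to 3. For other double-stranded RNA genes (2), DESeq2 and the exact test gave 3, no filter gave 4, at least 10 counts in every library 1, and left-out libraries 2 to 4. For other helicases (1), DESeq2 gave 2, the exact test 3, no filter 3, and left-out libraries 1 to 2. With at least 10 counts in every library, DNA sensors called fell from 4 to 2 and oligoadenylate synthetases from 7 to 1, fewer genes being tested. Mavs reversed to 0.0219 without si-GPD1L replicate 1 and ranged from -0.11 to 0.022 over left-out libraries. Other causes were not tested.

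With a replicate block, 921 genes passed (560 higher, 361 lower) and the block changed 0 of the 23 results it was applied to (Adar 1.67, Ddx60 8.0004). Same-numbered libraries did not deviate together (correlations -0.014, -0.006 and 0.043), so the numbers were not taken as pairs. Depth limits Ddx60 and Dhx58 in si-NC, where counts were 2 to 9 and 13 to 14. The TPM ratios cannot pass 0.05 with 3 against 3 libraries.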

Other observations

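Sensors of cytosolic DNA were also higher in part. Of 10 tested, 4 rose, where 4.03% of all tested genes did, and 0 fell, with a median log2 fold change of 0.18. Aim2, an inflammasome sensor of DNA, went from raw counts of 3, 5 and 2 in si-NC to 92, 121 and 82 in si-GPD1L (adjusted p = 6.90e-07). Mb21d1, the gene of the DNA sensor cGAS, rose by 1.17 on the log2 scale (adjusted p = 0.00149), and Trex1, a DNA exonuclease, by 0.76 (adjusted p = 0.00359). Zbp1 stands in both this list and that of double-stranded RNA genes. Aim2 and Zbp1 had at most 5 raw counts in any si-NC library and passed the filter only through si-GPD1L. With at least 10 counts in every library, only Mb21d1 and Trex1 were called. Prkdc (0.18, adjusted p = 0.332) and Xrcc5 (-0.085, adjusted p = 0.695), the most abundant of the list, did not pass.

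Transcripts of the interferons themselves were scarce. Of 11 type I and III interferon genes with a row, 9 had 0 counts in all 6 libraries, which allows up to 3 counts per library at these depths, and 0 passed the filter on low counts, so none was tested. The largest count of the other two in any library was 18. Interferon protein was not measured in these files, and RNA was sampled only at 24 h.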
